A study of Homo sapiens with 19 samples.

Results

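Cholesterol synthesis and uptake was followed through 28 genes, taken from a list of symbols: 7 of the mevalonate and isoprenoid steps, 3 of squalene synthesis and ring closure, 8 of the steps between lanosterol and cholesterol, 4 of sterol sensing, and 6 of uptake, lysosomal release and transfer. All 28 were found among the 78894 genes measured by RNA sequencing in 19 libraries of differentiated HepaRG cells, a human hepatic line that matures into hepatocyte-like and biliary-like cells. 27 of them were among the 23121 genes that passed the filter on low counts. The exception was NPC1L1, the cholesterol channel of the intestinal and canalicular membrane, with 34 counts over 3 ADAR siRNA libraries, 19 over 3 ADARB1 siRNA libraries, 37 over 3 siNC libraries of batch 1, 2 over 2 libraries of BX795 with ADAR siRNA, 6 over 3 BX795 libraries, 10 over 2 IFNa libraries and 4 over 3 siNC libraries of batch 2.

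The labels place the libraries in 2 batches. Batch 1 comprised an siRNA to ADAR, an siRNA to ADARB1 and a negative control siRNA (siNC), with 3 libraries each, all at 20 nM. Batch 2 held 2 libraries of the kinase inhibitor BX795 (1 µM) with the ADAR siRNA, 3 of BX795 without it, 2 of interferon alpha (IFNa, 1000 U/mL) and 3 of its own siNC control. ADAR and ADARB1 are enzymes that convert adenosine to inosine in double-stranded RNA. TBK1 and IKK epsilon, which are among the kinases blocked by BX795, act downstream of nucleic acid sensors. Either compound was given with the transfection and kept through the media changes at 24 and 48 h. The cells were differentiated before transfection, the label protocols give 1 siRNA per target, and whether IFNa and BX795 wells without ADAR siRNA received siNC is not stated in the labels. Nothing states that replicates were separate cultures, so p-values measure only the spread between these libraries, which may be technical. The gene lists were chosen with earlier results of these data known. Shares of members called, set beside those of all genes, are therefore description and no independent test.

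The liver makes cholesterol from acetyl-CoA through mevalonate, squalene and lanosterol, and also takes it up in lipoproteins whose esters are split in lysosomes. When membranes of the endoplasmic reticulum are rich in sterols, INSIG proteins hold the escort protein SCAP and its cargo, the transcription factor SREBP2 (gene SREBF2), in place. When sterols are scarce, SCAP carries SREBP2 to the Golgi, proteases release it, and it switches on most genes of the pathway, often together with NF-Y and Sp1.

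Promoters are shown for 5 members on which the results below turn: SREBF2, INSIG1, TM7SF2, MVK and HMGCS1. RefSeq gave windows (GRCh38.p14) for 25 of the 28 members, each of 300 bases, 250 before the annotated start and 50 after it. Both strands were searched for the sterol regulatory element TCACNCCAC, the NF-Y box CCAAT and the Sp1 box GGGCGG, and matches on either strand are in capitals. SREBF2 lies at chr22:41832855-41833154 (plus strand), INSIG1 at chr7:155297628-155297927 (plus), TM7SF2 at chr11:65111622-65111921 (plus), MVK at chr12:109573544-109573843 (plus) and the first of 2 HMGCS1 windows at chr5:43313363-43313662 (minus).
SREBF2: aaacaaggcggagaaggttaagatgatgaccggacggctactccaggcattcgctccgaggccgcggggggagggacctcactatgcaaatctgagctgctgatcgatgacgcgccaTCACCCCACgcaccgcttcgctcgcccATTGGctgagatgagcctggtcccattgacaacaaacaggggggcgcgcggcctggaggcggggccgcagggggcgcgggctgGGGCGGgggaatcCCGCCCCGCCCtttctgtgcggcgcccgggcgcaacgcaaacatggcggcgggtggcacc
INSIG1: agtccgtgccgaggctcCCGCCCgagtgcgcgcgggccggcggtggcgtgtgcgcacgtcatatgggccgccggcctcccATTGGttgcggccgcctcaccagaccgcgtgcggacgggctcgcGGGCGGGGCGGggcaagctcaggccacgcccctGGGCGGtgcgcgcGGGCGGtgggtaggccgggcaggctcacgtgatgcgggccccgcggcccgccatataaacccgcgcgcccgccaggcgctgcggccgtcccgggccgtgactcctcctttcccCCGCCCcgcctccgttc
TM7SF2: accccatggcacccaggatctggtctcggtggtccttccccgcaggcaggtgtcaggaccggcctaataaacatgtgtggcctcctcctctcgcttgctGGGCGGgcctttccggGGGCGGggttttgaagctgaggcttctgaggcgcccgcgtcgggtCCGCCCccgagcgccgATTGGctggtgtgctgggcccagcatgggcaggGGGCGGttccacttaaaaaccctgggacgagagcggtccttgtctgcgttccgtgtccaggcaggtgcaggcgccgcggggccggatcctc
MVK: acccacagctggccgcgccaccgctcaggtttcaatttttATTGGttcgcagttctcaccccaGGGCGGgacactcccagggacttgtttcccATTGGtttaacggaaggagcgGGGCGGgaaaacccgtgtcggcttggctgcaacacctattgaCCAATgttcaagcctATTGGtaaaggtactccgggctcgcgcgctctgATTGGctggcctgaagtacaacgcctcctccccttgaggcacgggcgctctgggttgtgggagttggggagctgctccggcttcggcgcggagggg
HMGCS1: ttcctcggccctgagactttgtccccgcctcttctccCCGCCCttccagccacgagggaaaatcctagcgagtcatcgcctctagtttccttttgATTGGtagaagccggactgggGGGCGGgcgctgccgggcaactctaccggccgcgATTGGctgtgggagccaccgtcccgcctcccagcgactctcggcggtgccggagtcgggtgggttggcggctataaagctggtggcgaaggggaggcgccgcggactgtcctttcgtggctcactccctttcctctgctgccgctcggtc

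The SREBF2 window held the sterol regulatory element on the plus strand, beginning 133 bases before the start, with 1 NF-Y box and 3 Sp1 boxes. It was the 1 member of 25 (4.0%) with this element, beside 1.39% of the 27305 genes with a window. MVK held 5 NF-Y and 2 Sp1 boxes, HMGCS1 2 and 2, TM7SF2 1 and 4, and INSIG1 1 and 6; some Sp1 matches overlap each other in INSIG1 and SREBF2. The NF-Y box was present in 20 of 25 members (80%), beside 39.72% of genes, and the Sp1 box in 23 of 25 (92.0%), beside 48.3%. A match is a run of letters in this window only, and a gene with several windows counted as holding a motif when any window did.

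Total counts were 42.7 to 77.1 M per library in batch 1 and 13.1 to 34.7 M in batch 2. Levels are given in CPM, counts relative to a library's total after scaling by the trimmed mean of M-values (TMM). ADAR stood at 60.6 to 70.6 CPM with ADAR siRNA, against 260 to 264 CPM with siNC, and at 52.5 and 55.8 CPM with BX795 and ADAR siRNA, against 252 to 280 CPM with BX795; ADARB1 stood at 10.3 to 11.3 CPM with ADARB1 siRNA, against 31.4 to 33.5 CPM with siNC. The summed level of 10 hepatocyte markers was 64420 to 68490 CPM in the siNC libraries of batch 1 and 9684 to 12100 CPM in those of batch 2. The 10 biliary or progenitor markers summed to 207 to 1111 CPM over all groups and 5 blood lineage markers to 16.1 to 42.0 CPM; within these lists EPCAM was at 0 in 6 of the 7 groups and the T cell marker CD3E in 5. 2 of the 3 siNC libraries of batch 2 stood apart in base composition. The median log2 level of genes with over 60% GC, less that of genes under 40% GC and centred within the batch, was -0.65 to 0.07 in the treated libraries of batch 2, against 0.22, 1.03 and 0.92 in siNC replicates 1, 2 and 3; batch 1 spanned -0.12 to 0.13. Comparisons with siNC in batch 2 are therefore given also with offsets that remove each library's trend with GC content (GC offsets) and with siNC replicate 1 as the sole control.

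Control levels of HMGCS1, INSIG1 and NPC2 differed between the batches, and batch and cell state cannot be told apart here. HMGCS1, the synthase that makes HMG-CoA, stood at 398 to 413 CPM in siNC libraries of batch 1 and at 84.1 to 117 CPM in those of batch 2. INSIG1 stood at 614 to 667 CPM in batch 1 and 181 to 218 CPM in batch 2, and NPC2, a lysosomal cholesterol carrier, at 164 to 168 CPM and 282 to 318 CPM. The 9 libraries of batch 1 and the 10 of batch 2 did not overlap for these 3 genes. They were picked as examples, and overlap was not counted over the other members or over all genes. Groups below are compared within a batch, and only the interaction term sets responses from both batches against each other.

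**Figure D1:**
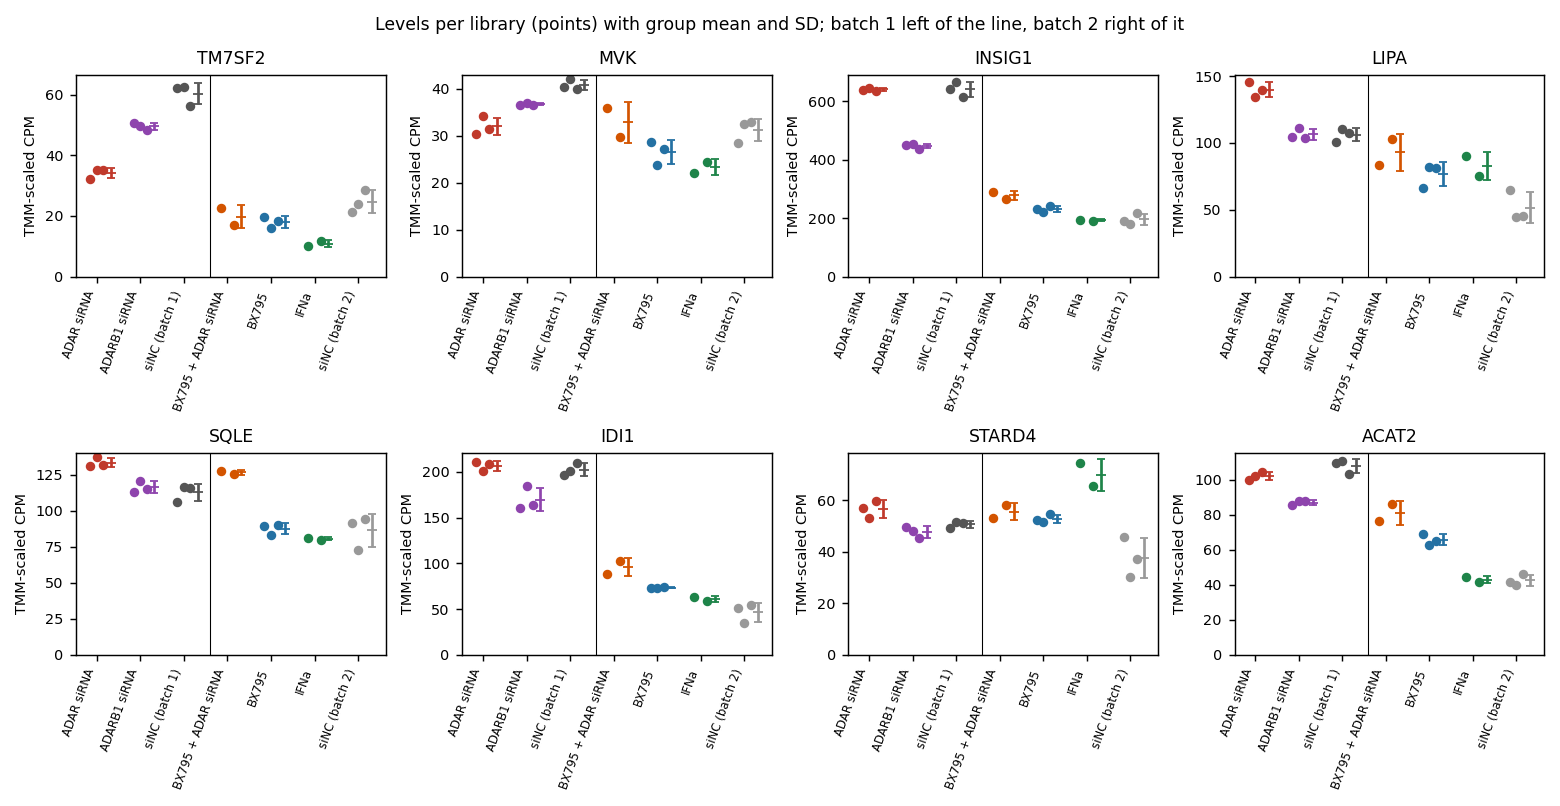
TMM-scaled CPM (y axis) of 8 members in every library (points), with each group's mean and SD beside them; batch 1 is left of the line and batch 2 right of it. TM7SF2 lies at 32.3 to 35.2 CPM with ADAR siRNA, below all siNC libraries of batch 1, and SQLE at 125 and 128 CPM with BX795 and ADAR siRNA, above all BX795 libraries.

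With the ADAR siRNA, TM7SF2 had the largest change among the 7 members called. TM7SF2, a sterol reductase that acts directly after CYP51A1, stood at 32.3, 35.2 and 35.1 CPM with ADAR siRNA, against 62.3, 62.8 and 56.4 CPM with siNC. The groups lay far apart, and the log2 fold change was -0.82 ± 0.10 (SE; adjusted p = 1.2e-05, edgeR quasi-likelihood test, n = 3 each). 3 members rose (11.1% of 27, beside 11.0% of all tested genes) and 4 fell (14.8%, beside 10.8%), so the number of members called was near the background. A fit of batch 1 alone called 16 of 27 members (9 higher, 7 lower), beside 19.1% of all genes higher and 16.3% lower in that fit. Among the 10184 tested genes with a mean of at least 10 CPM, a level all 27 members reached, 16.3% rose and 16.7% fell.

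MVK, mevalonate kinase, stood at 30.4, 34.1 and 31.4 CPM with ADAR siRNA, against 40.4, 42.0 and 40.03 CPM with siNC, without overlap (log2 fold change -0.35 ± 0.08, adjusted p = 0.0038 by edgeR). SC5D, the sterol desaturase, stood at 151, 140 and 150 CPM with ADAR siRNA, against 197, 202 and 202 CPM with siNC (-0.44 ± 0.13, adjusted p = 0.018 by edgeR). DHCR7, the reductase that completes cholesterol on the Kandutsch-Russell branch, stood at 197, 210 and 214 CPM with ADAR siRNA, against 250, 272 and 237 CPM with siNC (-0.29 ± 0.08, adjusted p = 0.018 by edgeR). The 4 members that fell thus lay in the mevalonate steps (1 of 7) and the steps after lanosterol (3 of 8). For these called genes no library of one group reached into the other. The share of all tested genes without overlap was not counted.

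The 3 members that rose were LIPA, INSIG2 and SQLE. LIPA, the lysosomal acid lipase that frees cholesterol from esters, stood at 146, 135 and 139 CPM with ADAR siRNA, against 101, 110 and 107 CPM with siNC (log2 fold change 0.40 ± 0.12, adjusted p = 0.021 by edgeR). INSIG2, a retention factor for SCAP, stood at 29.2, 28.7 and 28.04 CPM with ADAR siRNA, against 23.6, 21.0 and 24.6 CPM with siNC (0.31 ± 0.09, adjusted p = 0.022 by edgeR). SQLE, squalene epoxidase, stood at 131, 137 and 131 CPM with ADAR siRNA, against 106, 117 and 116 CPM with siNC (0.24 ± 0.08, adjusted p = 0.027 by edgeR). The ADAR siRNA libraries lay above every siNC library for each of these genes, which were picked as called in this comparison. The share of all tested genes without overlap was not counted. INSIG1, the other INSIG gene, did not pass the test (0.00 ± 0.07).

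Of these 7 calls, TM7SF2 and MVK held under all 14 alternative settings, at -0.87 to -0.78 and -0.40 to -0.32. Leaving out siNC replicate 2, ADAR siRNA replicate 1 or ADAR siRNA replicate 2 left 4, 3 and 4 members called. Of all tested genes, 16.5%, 17.1% and 16.6% were called in these fits. Markers moved in the same comparison. The hepatocyte sum was 48750 to 52180 CPM with ADAR siRNA, against 64420 to 68490 CPM with siNC (6 of 10 markers fell, 1 rose). The biliary or progenitor sum was 1075 to 1111 CPM, against 545 to 591 CPM (7 of 8 tested markers rose). The mesenchymal sum was 328 to 343 CPM, against 209 to 234 CPM (4 of 10 rose, 1 fell), and the cell cycle sum 410 to 460 CPM, against 319 to 355 CPM (5 of 10 rose). Their part in the changes of the sterol genes was not tested, and in bulk RNA fewer cells of a type and less RNA per cell cannot be told apart.

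With the ADARB1 siRNA, INSIG1 and ACAT2 fell and no member rose. INSIG1 stood at 450, 453 and 439 CPM with ADARB1 siRNA, against 642, 667 and 614 CPM with siNC, a log2 fold change of -0.52 ± 0.07 (adjusted p = 6.9e-05, edgeR quasi-likelihood test, n = 3 each). ACAT2, the cytosolic thiolase that joins the first acetyl units, stood at 85.6, 87.8 and 87.8 CPM with ADARB1 siRNA, against 110, 111 and 103 CPM with siNC (-0.31 ± 0.06, adjusted p = 0.0061 by edgeR). Neither gene's groups overlapped, and how many of all tested genes lacked overlap was not counted.

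These 2 calls (7.4% of 27) compare with 2.51% of all tested genes that fell and 4.4% of those with at least 10 CPM. With edgeR 0 members rose, beside 2.10% of all tested genes, and with DESeq2's Wald test 0, beside 3.15%. At an unadjusted p below 0.05, 0 members were higher, and the share of all genes was not counted. Both calls held under all 14 alternatives, INSIG1 at -0.55 to -0.49 and ACAT2 at -0.34 to -0.29. A fit of batch 1 alone called 10 members (3 higher, 7 lower), beside 7.64% of all genes higher and 7.78% lower. The other sterol sensors lay at 0.22 ± 0.10 for SCAP, 0.16 ± 0.08 for SREBF2 and 0.09 ± 0.09 for INSIG2, with none past the threshold. Hepatocyte markers summed to 55610 to 59200 CPM with ADARB1 siRNA, against 64420 to 68490 CPM with siNC, and cell cycle markers to 264 to 284 CPM, against 319 to 355 CPM; their part in the fall of INSIG1 was not tested.

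The direct comparison of both siRNAs gave INSIG1 higher with ADAR siRNA than with ADARB1 siRNA: 640, 646 and 637 CPM, against 450, 453 and 439 CPM with ADARB1 siRNA (log2 fold change 0.52 ± 0.07, adjusted p = 1.1e-05 by edgeR). ACAT2 (0.23 ± 0.06), LIPA (0.39 ± 0.12) and FDPS, farnesyl diphosphate synthase (0.17 ± 0.05), were also higher with ADAR siRNA. TM7SF2 was lower, at 32.3 to 35.2 CPM with ADAR siRNA against 48.5 to 50.6 CPM with ADARB1 siRNA (-0.54 ± 0.10), as was DHCR7 (-0.27 ± 0.08). In all, 4 members were higher (14.8%, beside 9.90% of all tested genes) and 2 lower (7.4%, beside 9.64%). INSIG1 and TM7SF2 kept their calls under all 14 alternatives. Without ADAR siRNA replicate 3 or ADARB1 siRNA replicate 1, 2 members were called, beside 14.8% and 14.2% of all genes. A fit of batch 1 alone called 19 (12 higher, 7 lower), beside 17.8% of all genes higher and 15.5% lower. Markers moved in this comparison too: cell cycle markers summed to 410 to 460 CPM with ADAR siRNA, against 264 to 284 CPM with ADARB1 siRNA (10 of 10 rose), and interferon-response genes to 373 to 580 CPM, against 80.4 to 87.4 CPM (6 of 6 rose). Hepatocyte markers summed to 48750 to 52180 CPM with ADAR siRNA, against 55610 to 59200 CPM with ADARB1 siRNA (4 of 10 fell, 1 rose), biliary or progenitor markers to 1075 to 1111 CPM, against 608 to 622 CPM (4 of 8 tested rose), and mesenchymal markers to 328 to 343 CPM, against 214 to 221 CPM (3 of 10 rose, 2 fell). Their part in the differences of the sterol genes was not tested.

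**Figure D2:**
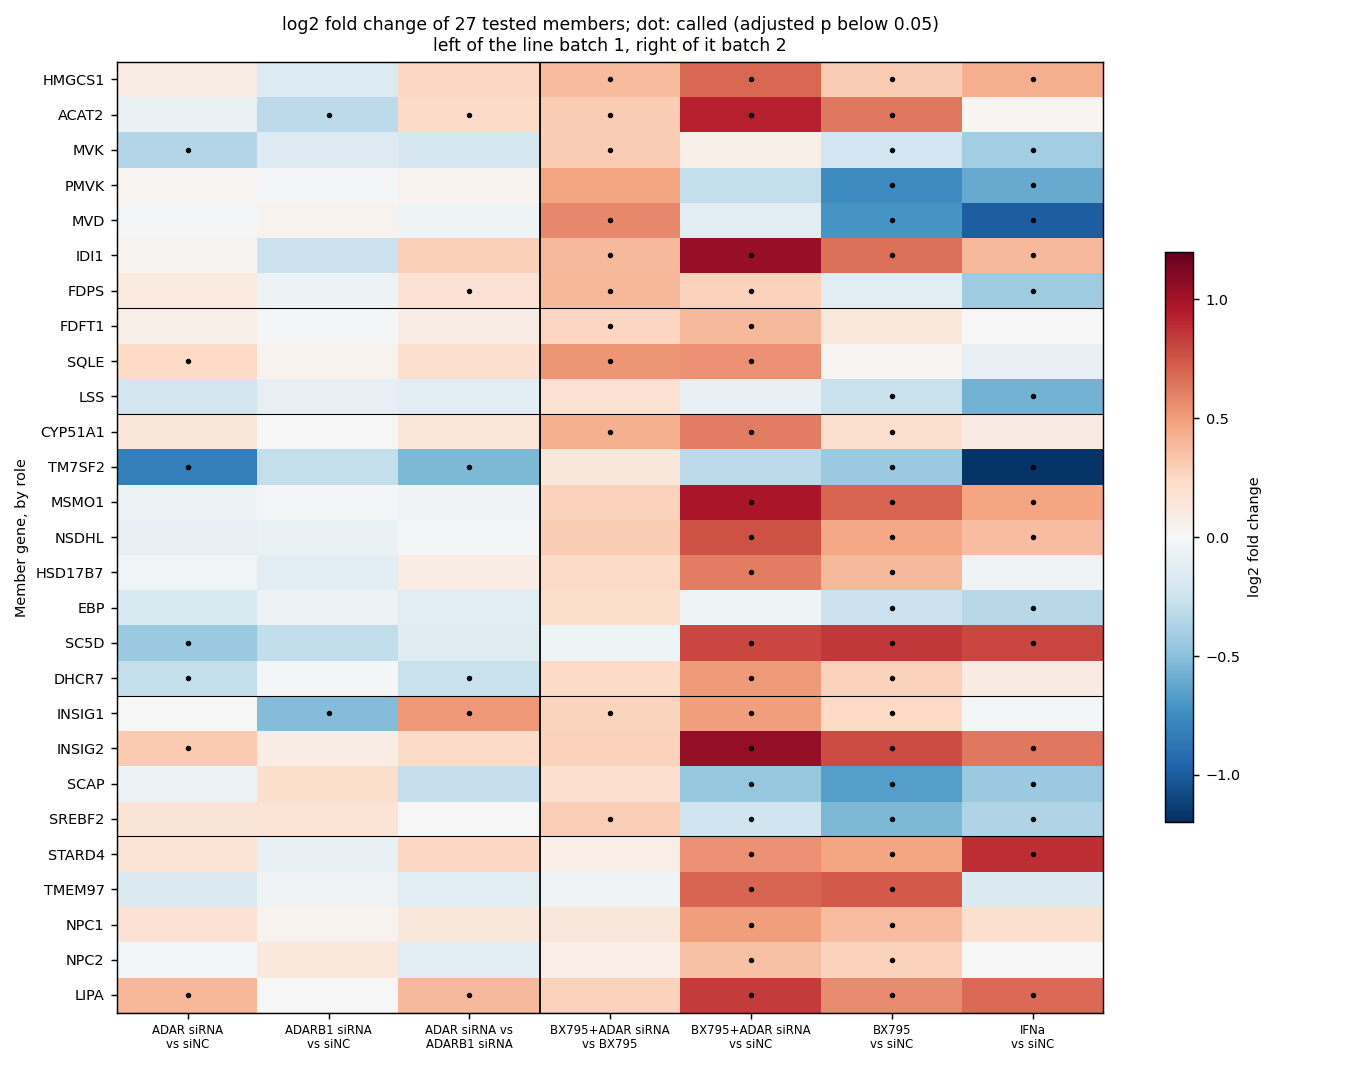
Log2 fold change (colour) of the 27 tested members (rows, grouped by role) in 7 comparisons (columns, batch 1 left of the line and batch 2 right of it); a dot marks an adjusted p below 0.05. The column of BX795 with ADAR siRNA against BX795 has 11 dots, all of them higher, while the columns against siNC in batch 2 mix both colours.

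Added to BX795, the ADAR siRNA went with higher levels of the early pathway. Whether the BX795 wells received siNC is not stated, so the ADAR siRNA and siRNA transfection itself cannot be told apart here. The members were chosen with earlier results of these data known, so the shares below are no independent test. 11 of 27 members rose (40.7%, beside 5.06% of all tested genes and 9.4% of those with at least 10 CPM) and 0 fell (beside 4.46%). DESeq2's Wald test also called 11 higher and 0 lower, beside 5.37% and 6.83% of all genes. At an unadjusted p below 0.05 edgeR gave 16 higher and 0 lower, and the share of all genes was not counted. The median log2 fold change over the 27 members was 0.28, against 0.02 over all tested genes. By role, 6 of 7 mevalonate and isoprenoid genes rose, 2 of 3 genes of squalene and ring closure, 1 of 8 genes after lanosterol, 2 of 4 sensing genes and 0 of 5 tested genes of uptake, lysosomal release and transfer.

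SQLE stood at 128 and 125 CPM with BX795 and ADAR siRNA, against 89.1, 83.2 and 90.2 CPM with BX795 (log2 fold change 0.53 ± 0.08, adjusted p = 0.00038, edgeR quasi-likelihood test, n = 2 and 3). FDPS stood at 142 and 144 CPM, against 115, 104 and 106 CPM with BX795 (0.40 ± 0.06, adjusted p = 0.00019 by edgeR). CYP51A1, the lanosterol demethylase, stood at 379 and 396 CPM, against 287, 281 and 299 CPM with BX795 (0.42 ± 0.08, adjusted p = 0.0011 by edgeR). Replicates of these 3 genes lay close together beside the distance between the groups.

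MVD, mevalonate diphosphate decarboxylase, had the highest fold change but a wide spread: 92.0 and 63.7 CPM with BX795 and ADAR siRNA, against 59.5, 44.9 and 51.9 CPM with BX795 (0.58 ± 0.18, adjusted p = 0.049 by edgeR). IDI1, which isomerises the isoprene unit, stood at 88.8 and 103 CPM, against 72.8, 73.1 and 73.6 CPM with BX795 (0.39 ± 0.12, adjusted p = 0.047 by edgeR). HMGCS1 stood at 154 and 174 CPM, against 112, 129 and 138 CPM with BX795 (0.38 ± 0.11, adjusted p = 0.030 by edgeR). For MVD the lower of the 2 libraries lay just above the highest BX795 library.

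ACAT2 stood at 76.3 and 86.0 CPM, against 69.2, 63.0 and 65.2 CPM with BX795 (0.30 ± 0.07, adjusted p = 0.0097 by edgeR). MVK stood at 35.9 and 29.8 CPM, against 28.6, 23.8 and 27.2 CPM with BX795 (0.31 ± 0.09, adjusted p = 0.048 by edgeR). The squalene synthase FDFT1 rose by 0.26 ± 0.07 on the log2 scale. The 2 sensing genes that rose were SREBF2, at 305 and 254 CPM against 239, 215 and 231 CPM with BX795 (0.29 ± 0.09), and INSIG1, at 290 and 267 CPM against 233, 220 and 241 CPM with BX795 (0.27 ± 0.07). Of the members that missed the threshold, 14 of 16 had log2 fold changes above 0, up to 0.47 ± 0.17 for PMVK, phosphomevalonate kinase, and SC5D and TMEM97 lay at -0.05 and -0.04.

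The number of calls here depended on the fit. FDPS and SQLE passed under all 13 alternatives; a fit of batch 2 alone called only these 2 (beside 1.19% of all genes higher), a fit of the 5 compared libraries 4 (beside 1.70%), and GC offsets 16, all higher (beside 9.24% of all genes higher and 6.26% lower). Without BX795 replicate 2 or 3, 4 and 7 were called, beside 6.91% and 6.68% of all genes called in either direction. Other programmes moved in the same libraries. Cell cycle markers summed to 54.8 and 62.5 CPM, against 99.1 to 115 CPM with BX795 (7 of 10 fell). Hepatocyte markers summed to 6275 and 7707 CPM, against 8851 to 9439 CPM (5 of 10 fell, 1 rose). The 6 interferon-response genes summed to 97.5 and 132 CPM, against 48.6 to 56.3 CPM (5 of 6 rose). Their part in the rise of the sterol genes was not tested.

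**Figure D3:**
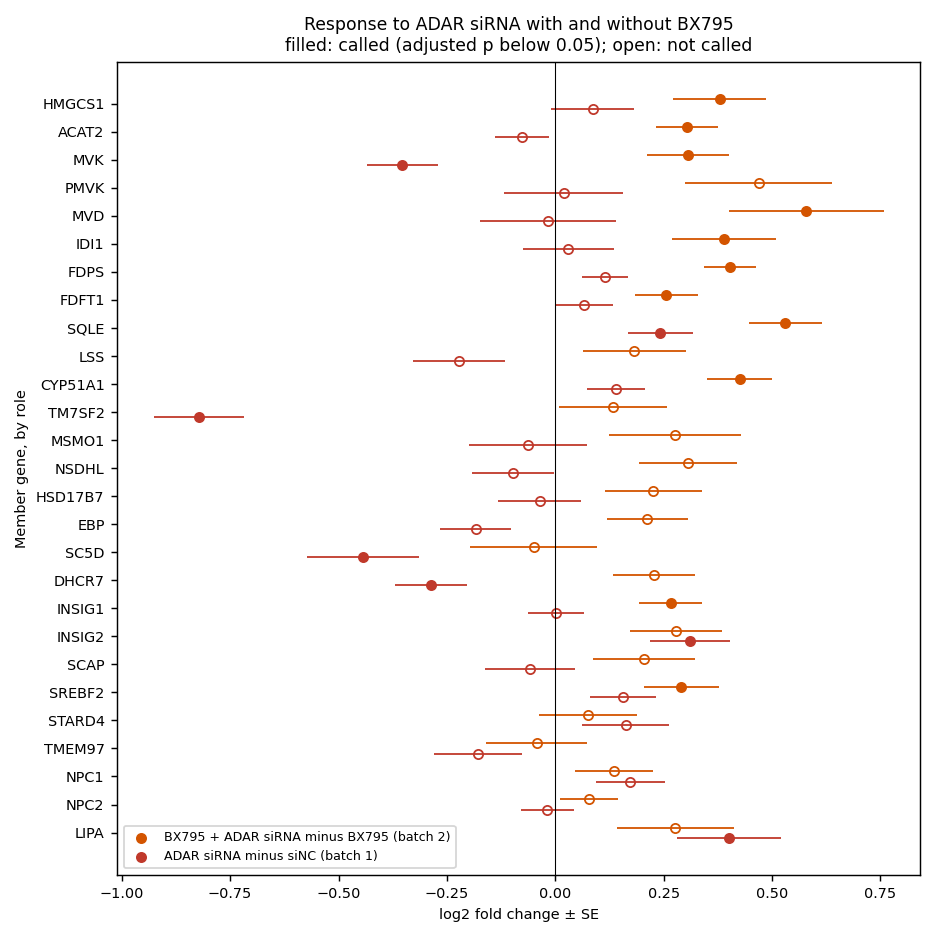
Log2 fold change ± SE (x axis) of the 27 tested members (y axis, by role) for ADAR siRNA added to BX795 (orange, batch 2) and for ADAR siRNA alone (red, batch 1); filled points passed the test. The orange points lie right of 0 except SC5D and TMEM97, and TM7SF2 has the widest gap, at 0.13 with BX795 and -0.82 without.

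The interaction term set the ADAR siRNA response in BX795 against the response without it. It crosses the batches, so batch and BX795 cannot be told apart in it. Whether the BX795 wells without ADAR siRNA received siNC is not stated, so siRNA transfection itself cannot be told apart in it either. 4 members responded more positively with BX795 (14.8%, beside 1.42% of all tested genes and 2.7% of those with at least 10 CPM). 0 responded less positively (beside 2.00%). DESeq2's Wald test gave 5 and 0, beside 1.91% and 3.33% of all genes. At an unadjusted p below 0.05 edgeR gave 13 and 0, and the share of all genes was not counted. TM7SF2 had log2 fold changes of 0.13 ± 0.13 with BX795 and -0.82 ± 0.10 without it, a difference of 0.95 ± 0.16 (adjusted p = 0.0017 by edgeR). MVK had 0.31 ± 0.09 with BX795 and -0.35 ± 0.08 without, a difference of 0.66 ± 0.12 (adjusted p = 0.0041 by edgeR). DHCR7 differed by 0.52 ± 0.12 (0.23 with BX795, -0.29 without) and ACAT2 by 0.38 ± 0.10 (0.30 with BX795, -0.08 without).

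MVK was thus called on both sides of 0, and TM7SF2 was called only without BX795. TM7SF2 and MVK kept the interaction call under all 17 alternatives (0.74 to 1.15 and 0.52 to 0.79). DHCR7 missed it with GC offsets (0.45 ± 0.18, adjusted p = 0.18 by edgeR). Without siNC replicate 1 or 2 of batch 1, or ADAR siRNA replicate 1 or 2, 2 members were called. Of all tested genes, 2.23% to 2.61% were called in these fits. SQLE rose in both settings, and its difference of 0.29 ± 0.11 missed the threshold (adjusted p = 0.22 by edgeR).

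Against siNC, the libraries of BX795 with ADAR siRNA had higher levels of most members. 19 of 27 rose (70.4%, beside 21.4% of all tested genes and 37.9% of those with at least 10 CPM) and 2 fell (7.4%, beside 18.9%). With GC offsets 22 rose (beside 20.8% of all genes) and 0 fell (beside 13.9%), and against siNC replicate 1 alone 15 rose and 0 fell (beside 20.2% of all genes called in either direction). 13 members passed under all 14 alternatives: HMGCS1, ACAT2 and IDI1 of the mevalonate and isoprenoid steps, SQLE, 4 genes after lanosterol (CYP51A1, MSMO1, NSDHL and HSD17B7, whose near-identical copy makes its count uncertain), both INSIG genes, and TMEM97, NPC1 and LIPA. How many of all tested genes passed under all 14 was not counted. The median over the members was 0.51, and 0.43 with GC offsets.

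ACAT2 stood at 76.3 and 86.0 CPM with BX795 and ADAR siRNA, against 41.8, 39.8 and 45.9 CPM with siNC (log2 fold change 0.94 ± 0.07, adjusted p = 2.9e-08 by edgeR; 1.00 ± 0.07 with GC offsets). IDI1 stood at 88.8 and 103 CPM, against 50.7, 34.5 and 53.9 CPM with siNC (1.05 ± 0.12; 0.81 ± 0.10 with GC offsets). INSIG2 stood at 26.7 and 35.3 CPM, against 15.1, 13.1 and 16.7 CPM with siNC (1.06 ± 0.11; 0.64 ± 0.11 with GC offsets). MSMO1, the methylsterol oxidase, stood at 281 and 321 CPM, against 196, 107 and 157 CPM with siNC (0.97 ± 0.15; 0.65 ± 0.10 with GC offsets), and LIPA at 83.2 and 103 CPM, against 65.1, 44.4 and 45.1 CPM with siNC (0.84 ± 0.14; 0.66 ± 0.10 with GC offsets). None of these 5 genes, picked among the called members, overlapped between the groups. The share of all tested genes without overlap was not counted. The 2 that fell, SCAP (-0.46 ± 0.12) and SREBF2 (-0.24 ± 0.09), had no call and a positive sign with GC offsets (0.08 ± 0.06 and 0.06 ± 0.05).

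Markers moved in the same libraries. Cell cycle markers summed to 54.8 and 62.5 CPM with BX795 and ADAR siRNA, against 145 to 179 CPM with siNC (10 of 10 fell). Hepatocyte markers summed to 6275 and 7707 CPM, against 9684 to 12100 CPM with siNC (8 of 10 fell, 2 rose), and mesenchymal markers to 243 and 250 CPM, against 410 to 429 CPM (6 of 10 fell, 1 rose). Biliary or progenitor markers summed to 261 and 289 CPM, against 328 to 373 CPM (3 of 8 tested rose, 3 fell), and interferon-response genes to 97.5 and 132 CPM, against 82.9 to 149 CPM (3 of 6 rose, 1 fell). Their part in the higher levels of the sterol genes was not tested.

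BX795 without the siRNA went with 16 members higher (59.3%, beside 23.4% of all tested genes and 38.1% of those with at least 10 CPM) and 8 lower (29.6%, beside 23.7% and 33.1%). Since siNC in these BX795 wells is not stated, BX795 and a lack of siRNA transfection cannot be told apart against siNC. The direction followed base composition: transcripts of the members that rose had a median of 42.2% GC, and those that fell 58.9%. Across the 27 members, Spearman's rho between GC content and log2 fold change was -0.80, in libraries shared by all points, and -0.04 with GC offsets. Over all 20107 tested genes with a GC value it was -0.56 and -0.02. The offsets remove each library's GC trend by design, so a rho near 0 with them is no test. They would also remove any treatment effect that follows GC content. GC offsets gave 14 members higher (beside 19.1% of all genes) and 1 lower (beside 16.4%), and siNC replicate 1 alone 8 higher and 2 lower (beside 20.3% called in either direction). In the same comparison cell cycle markers summed to 99.1 to 115 CPM with BX795, against 145 to 179 CPM with siNC (9 of 10 fell), hepatocyte markers to 8851 to 9439 CPM, against 9684 to 12100 CPM (6 of 10 fell, 2 rose), and mesenchymal markers to 265 to 269 CPM, against 410 to 429 CPM (5 of 10 fell, 1 rose). Biliary or progenitor markers summed to 207 to 210 CPM with BX795, against 328 to 373 CPM with siNC (4 of 8 tested fell, 2 rose), and interferon-response genes to 48.6 to 56.3 CPM, against 82.9 to 149 CPM (2 of 6 fell). The part of these programmes in the sterol genes was not tested.

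6 members passed under all 15 alternatives in 1 direction: ACAT2, IDI1, MSMO1, SC5D and TMEM97 higher, and SREBF2 lower. ACAT2 stood at 69.2, 63.0 and 65.2 CPM with BX795, against 41.8, 39.8 and 45.9 CPM with siNC (log2 fold change 0.63 ± 0.07; 0.68 ± 0.07 with GC offsets). TMEM97, a protein of the endoplasmic reticulum that binds NPC1, stood at 86.6, 99.0 and 99.3 CPM with BX795, against 68.6, 51.6 and 49.8 CPM with siNC (0.74 ± 0.11; 0.61 ± 0.08 with GC offsets). SC5D stood at 106, 128 and 123 CPM with BX795, against 82.9, 52.5 and 61.9 CPM with siNC (0.85 ± 0.13; 0.47 ± 0.08 with GC offsets). SREBF2 stood at 239, 215 and 231 CPM with BX795, against 294, 343 and 356 CPM with siNC (-0.54 ± 0.08; -0.15 ± 0.05 with GC offsets). For ACAT2 the offsets moved the value little, whereas SREBF2 kept its sign at a smaller size. IDI1 stood at 72.8, 73.1 and 73.6 CPM with BX795, against 50.7, 34.5 and 53.9 CPM with siNC (0.66 ± 0.11; 0.35 ± 0.09 with GC offsets). MSMO1 stood at 231, 258 and 258 CPM with BX795, against 196, 107 and 157 CPM with siNC (0.70 ± 0.14; 0.30 ± 0.09 with GC offsets). These 6 genes, picked as called in every setting, did not overlap between the groups. How many of all tested genes passed in every setting, or lacked overlap, was not counted.

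INSIG2 and LIPA kept their calls with GC offsets; INSIG2 lost it with GC offsets and the replicate block together, and LIPA with siNC replicate 1 as the sole control. INSIG2 stood at 26.5, 24.7 and 25.7 CPM with BX795, against 15.1, 13.1 and 16.7 CPM with siNC (log2 fold change 0.78 ± 0.10; 0.29 ± 0.10 with GC offsets). LIPA stood at 66.6, 82.1 and 81.5 CPM with BX795, against 65.1, 44.4 and 45.1 CPM with siNC (0.57 ± 0.13; 0.32 ± 0.09 with GC offsets), where the lowest BX795 library lay just above siNC replicate 1. PMVK stood at 13.6, 10.2 and 11.8 CPM with BX795, against 14.03, 24.4 and 22.2 CPM with siNC (-0.75 ± 0.16), and had no call with GC offsets (-0.23 ± 0.11). siNC replicate 1 lay close to the BX795 libraries for PMVK, apart from the other two siNC libraries.

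Other calls with BX795 changed sign under GC offsets. TM7SF2 stood at 19.7, 16.0 and 18.2 CPM with BX795, against 21.3, 24.1 and 28.8 CPM with siNC, a log2 fold change of -0.45 ± 0.12, and of 0.33 ± 0.08 with GC offsets (adjusted p = 0.0037 and 0.0031 by edgeR). LSS, lanosterol synthase, gave -0.27 ± 0.11 and 0.18 ± 0.07, and MVK -0.23 ± 0.09 and 0.20 ± 0.06. SCAP stood at 84.6, 77.4 and 83.4 CPM with BX795, against 106, 143 and 140.3 CPM with siNC (-0.66 ± 0.11; 0.01 ± 0.06 with GC offsets). MVD stood at 59.5, 44.9 and 51.9 CPM with BX795, against 61.2, 89.6 and 106 CPM with siNC (-0.71 ± 0.16; 0.06 ± 0.08 with GC offsets). DHCR7, GC-rich at 58.3%, rose in both fits (0.28 ± 0.08 and 0.71 ± 0.12). No direction with BX795 can be given for TM7SF2, LSS or MVK from these libraries.

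**Figure D4:**
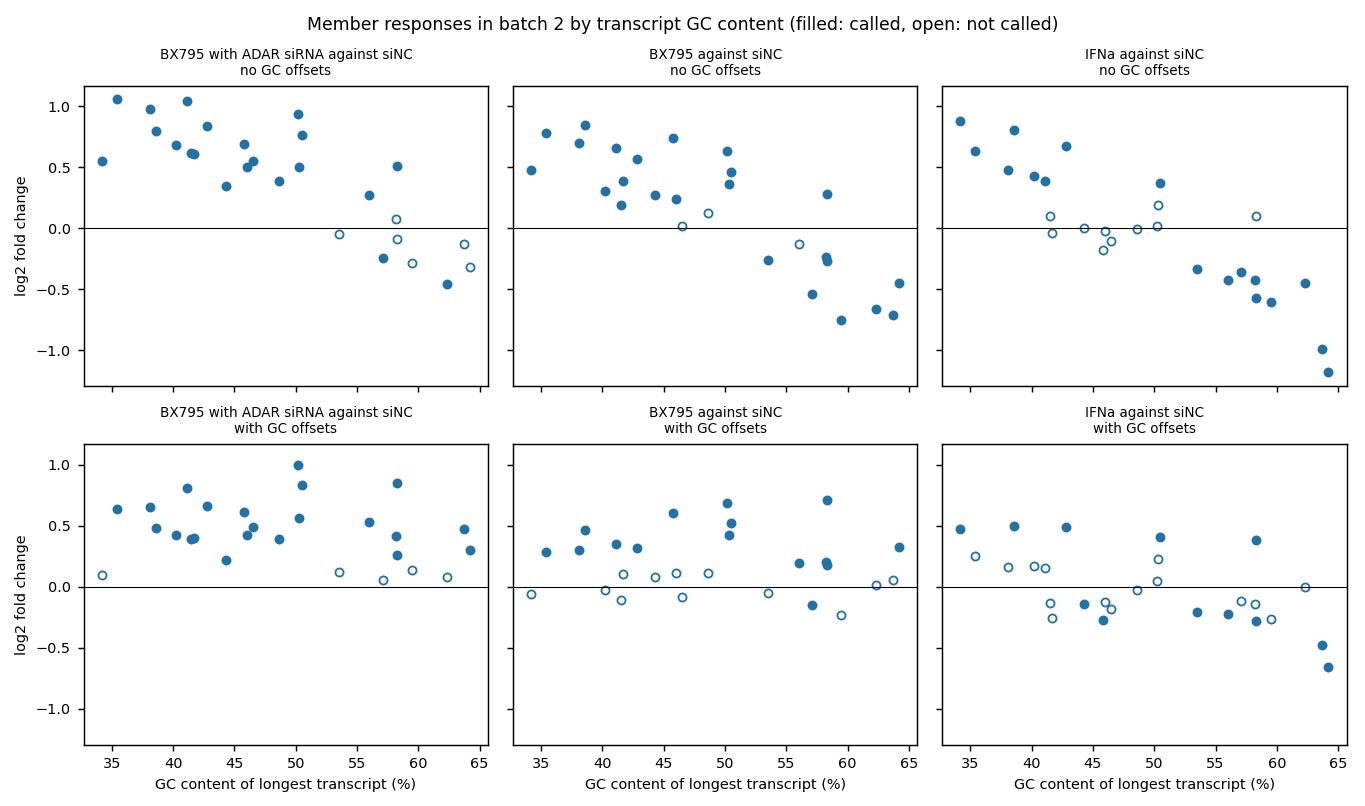
Log2 fold change (y axis) of the 27 tested members against the GC content of their longest transcript (x axis, percent) for the 3 comparisons with siNC in batch 2, without GC offsets (top row) and with them (bottom row); filled points passed the test. In the top row the points fall with GC content, with Spearman's rho of -0.81, -0.80 and -0.84. In the bottom row, where the offsets remove GC trends by design, rho is -0.24, -0.04 and -0.54.

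IFNa went with 8 members higher (29.6%, beside 18.4% of all tested genes and 33.9% of those with at least 10 CPM) and 9 lower (33.3%, beside 15.9% and 23.9%), with a median log2 fold change of -0.01. Since siNC in the IFNa wells is not stated, IFNa and a lack of siRNA transfection cannot be told apart against siNC. The members that rose had 34.2 to 50.5% GC and those that fell 53.5 to 64.2% GC, so the 2 sets did not overlap in base composition. GC offsets gave 5 higher (beside 14.9% of all genes) and 7 lower (beside 11.5%), siNC replicate 1 alone 2 higher and 3 lower (beside 8.50% called in either direction), and the fit without IFNa replicate 1 called 7.

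2 members passed under all 14 alternatives, and how many of all tested genes did so was not counted. STARD4, a cytosolic sterol carrier, stood at 74.3 and 65.5 CPM with IFNa, against 45.7, 30.1 and 37.4 CPM with siNC (log2 fold change 0.88 ± 0.11, adjusted p = 3.0e-05 by edgeR; 0.47 ± 0.07 with GC offsets). TM7SF2 stood at 10.1 and 11.7 CPM with IFNa, against 21.3, 24.1 and 28.8 CPM with siNC (-1.18 ± 0.13, adjusted p = 7.3e-06 by edgeR; -0.66 ± 0.09 with GC offsets). TM7SF2 thus fell with IFNa in batch 2 as it did with ADAR siRNA in batch 1, where 6 of 6 interferon-response genes rose (summed level 373 to 580 CPM with ADAR siRNA, against 90.8 to 94.7 CPM with siNC; 3156 and 4225 CPM with IFNa, against 82.9 to 149 CPM with siNC). With ADAR siRNA added to BX795, 5 of 6 interferon-response genes rose, and TM7SF2 was not called (-0.03 ± 0.08 with GC offsets). Whether the interferon response has a part in the level of TM7SF2 was not tested.

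MVD stood at 36.2 and 49.8 CPM with IFNa, against 61.2, 89.6 and 106 CPM with siNC (log2 fold change -0.99 ± 0.19; -0.47 ± 0.09 with GC offsets). SC5D stood at 131 and 99.4 CPM with IFNa, against 82.9, 52.5 and 61.9 CPM with siNC (0.80 ± 0.15; 0.50 ± 0.09 with GC offsets), and LIPA at 90.4 and 75.5 CPM, against 65.1, 44.4 and 45.1 CPM with siNC (0.68 ± 0.14; 0.49 ± 0.10 with GC offsets). These 3 genes, picked among the called members, did not overlap between the groups and kept their calls with GC offsets. The share of all tested genes without overlap was not counted. FDPS (-0.42 ± 0.06; -0.22 ± 0.07), LSS (-0.57 ± 0.12; -0.28 ± 0.07) and EBP, the sterol isomerase (-0.33 ± 0.10; -0.20 ± 0.07), also fell in both fits, and NSDHL, a sterol dehydrogenase, rose in both (0.37 ± 0.12; 0.41 ± 0.11). Calls of INSIG2, HMGCS1, IDI1, MSMO1, PMVK, MVK, SCAP and SREBF2 were absent with GC offsets. Mesenchymal markers summed to 433 and 460 CPM with IFNa, against 410 to 429 CPM with siNC (3 of 10 rose, 2 fell), and hepatocyte markers to 8457 and 8748 CPM, against 9684 to 12100 CPM (5 of 10 fell, 2 rose). Cell cycle markers summed to 146 and 149 CPM with IFNa, against 145 to 179 CPM with siNC (2 of 10 fell), and biliary or progenitor markers to 311 and 317 CPM, against 328 to 373 CPM (2 of 8 tested rose, 2 fell); their part was not tested.

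Other genes of sterol handling, from 4 further lists of 54 genes, were counted beside the members. Among 12 genes of SREBP processing and sterol-sensing turnover, 3 rose and 1 fell with ADAR siRNA (25% and 8.3%, beside 11.0% and 10.8% of all tested genes), and 1 rose with ADARB1 siRNA and 1 with ADAR siRNA in BX795 (8.3% each, beside 2.10% and 5.06%). The gene shared by these counts was MBTPS1, the serine protease that makes the first cut in SREBP. Its log2 fold change was 0.61 ± 0.05 with ADAR siRNA and 0.67 ± 0.05 with ADARB1 siRNA, 2 comparisons that share their siNC libraries, and 0.47 ± 0.06 with ADAR siRNA in BX795 (adjusted p = 1.5e-07, 3.0e-07 and 3.2e-05 by edgeR). In batch 2 against siNC, this list had 10 of 12 genes higher and 1 lower with BX795 and ADAR siRNA (beside 21.4% and 18.9% of all tested genes), 9 and 1 with BX795 (beside 23.4% and 23.7%), and 7 and 1 with IFNa (beside 18.4% and 15.9%). With GC offsets these counts were 7 and 1 (beside 20.8% and 13.9%), 5 and 2 (beside 19.1% and 16.4%), and 4 and 0 (beside 14.9% and 11.5%). SREBF1, the gene of SREBP1, fell with BX795 (log2 fold change -1.18 ± 0.12; -0.48 ± 0.05 with GC offsets).

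In the list of esterification, oxysterols and efflux (15 tested genes), 1 rose and 6 fell with ADAR siRNA (6.7% and 40%, beside 11.0% and 10.8% of all tested genes), and 2 fell with ADARB1 siRNA (13.3%, beside 2.51%). The gene that rose with ADAR siRNA was NCEH1, a hydrolase of cholesteryl esters outside lysosomes (0.83 ± 0.12), which was also higher with BX795 and ADAR siRNA than with siNC (1.45 ± 0.14; 1.22 ± 0.10 with GC offsets). Among 12 tested lipoprotein receptors and sterol carriers, 1 rose and 3 fell with ADAR siRNA (8.3% and 25%, beside 11.0% and 10.8%): GRAMD1C, STARD5 and SCP2 fell, with log2 fold changes of -0.85 ± 0.12, -0.46 ± 0.07 and -0.41 ± 0.06. SCP2, a peroxisomal sterol carrier, fell with ADARB1 siRNA too (-0.61 ± 0.06), and STARD5 rose with IFNa (0.78 ± 0.08, and 0.78 ± 0.06 with GC offsets). In the isoprenoid branches (12 genes), 2 rose and 2 fell with ADAR siRNA (16.7% each, beside 11.0% and 10.8%), and 2 rose with ADAR siRNA in BX795 (16.7%, beside 5.06%); NUS1, a subunit of the enzyme that makes dolichol, rose in both settings (0.35 ± 0.07 and 0.26 ± 0.08).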

How the data were processed

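The authors deposited 1 table of expected counts per gene, 1 column per library; per the submitters' processing notes they used STAR and Salmon with GRCh38.p14, while versions, settings and annotation were not given in the sources used here. Directional libraries were made after ribosomal RNA removal, per the labels' protocols. Counts were rounded to whole numbers. Testing used edgeR 4.0.16 under R 4.3.3 (filterByExpr, TMM, quasi-likelihood F test), with 1 mean per group, in 1 fit of all 19 libraries with 12 residual degrees of freedom. P-values were adjusted by Benjamini-Hochberg over 23121 genes and called below 0.05; all adjusted p-values come from this test. Levels are TMM-scaled CPM; errors of log2 fold changes are SE. Members and lists were chosen with earlier results of these data known. Full values go to at most 10 called members per comparison, those with the largest absolute log2 fold change; SREBF2 and TM7SF2 with BX795 lie outside this rule and were added after their values were seen; genes of the other lists are named only where called and among the 3 smallest p of their list. GC content is that of the longest GENCODE transcript, known for 86.96% of tested genes; GC offsets come from a smoothing spline (5 degrees of freedom) per library. Alternatives were DESeq2 1.42.0 size factors or its Wald test, no expression filter, fewer libraries per fit, a replicate block, GC offsets, leaving out each library and, chosen after seeing the data, siNC replicate 1 as the sole control of batch 2. The edgeR, DESeq2 and GC steps were tested on simulated data. Replicates differed by a chi-square of 5.52 to 58.1 per gene, so no library repeated another.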

Additional observations from a re-analysis of the deposited data

Results flagged for a closer look

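For 4 members the response to ADAR siRNA differed between BX795-treated and untreated cells, by the interaction test of edgeR across the batches. The difference in log2 fold change, with BX795 less without it, was 0.955 ± 0.162 (SE) for TM7SF2 (adjusted p = 0.0017), 0.659 ± 0.124 for MVK (adjusted p = 0.0041), 0.515 ± 0.125 for DHCR7 (adjusted p = 0.027) and 0.381 ± 0.095 for ACAT2 (adjusted p = 0.032). All 4 responses to ADAR siRNA, not the levels themselves, were more positive with BX795 than without it. Batch, BX795 and siRNA transfection itself cannot be told apart in this contrast. No group held enough libraries for a test of single outlying libraries.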

How the results depend on the processing

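Numbers are members called of 27, and the cause of a shift was not tested. Percentages in brackets are the share of all tested genes called in the same fit. ADAR siRNA against siNC called 7 (21.8%). A fit of batch 1 alone or of the compared groups gave 16 each (35.4% and 34.9%). Leaving out 1 library gave 3 to 6 (16.0% to 18.4%). ADARB1 siRNA against siNC called 2 (4.61%), batch 1 alone 10 (15.4%), the compared groups 9 (14.1%) and GC offsets 5 (7.95%). ADAR against ADARB1 siRNA called 6 (19.5%). Batch 1 alone or the compared groups gave 19 (33.3% and 33.1%), GC offsets 11 (25.8%), and leaving out 1 library 2 to 5 (14.2% to 15.7%). BX795 with ADAR siRNA against BX795 called 11 (9.52%). DESeq2 size factors gave 4 (9.14%), no expression filter 7 (4.35% of 52981 genes), batch 2 alone 2 (3.09%) and the compared groups 4 (4.18%). Leaving out 1 BX795 library gave 4 to 8 (6.68% to 9.08%). The interaction called 4 (3.42%) and GC offsets 7 (5.94%). Leaving out 1 library from a group of 3 gave 2 to 4 (2.23% to 3.00%). BX795 against siNC called 24 (47.1%) and GC offsets 15 (35.5%), and the fit with the sole control is given above. IFNa against siNC called 17 (34.3%), batch 2 alone 10 (20.1%) and the compared groups 5 (7.35%). Leaving out 1 siNC library gave 14 to 18 (26.5% to 41.7%). The sole control and the fit without IFNa replicate 1 are described above. A lone IFNa library is assumed to vary like the other groups. BX795 with ADAR siRNA against siNC stayed within 1.5 times its 21 under all alternatives.

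Replicate numbers did not pair the samples by the correlation of same-numbered libraries (-0.159 to 0.212). With the replicate block, ADAR siRNA against siNC called 3 (17.8%) and ADAR against ADARB1 siRNA 3 (15.6%). BX795 with ADAR siRNA against BX795 called 5 (6.12%) and the interaction 2 (1.99%). The replicate block with GC offsets gave 4 for ADARB1 siRNA (6.16%) and 11 for ADAR against ADARB1 siRNA (23.2%). It gave 7 for IFNa (20.1%), 14 for BX795 (32.7%) and 11 for the interaction (4.52%).

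Signs turned, for members called in either fit, only in comparisons with siNC of batch 2. Values are log2 fold changes with GC offsets and then with the replicate block as well. For IFNa they were 0.001 and 0.030 for SCAP, and -0.140 with GC offsets for NPC2. For BX795 they were -0.029 and -0.030 for HMGCS1, 0.204 and 0.203 for MVK, 0.056 and 0.061 for MVD, 0.194 and 0.197 for FDPS, 0.177 and 0.181 for LSS (0.024 with the sole control), -0.106 and -0.099 for CYP51A1, 0.325 and 0.324 for TM7SF2, 0.013 and 0.011 for SCAP, and -0.056 and -0.053 for STARD4. For BX795 with ADAR siRNA they were 0.477 and 0.554 for MVD, 0.265 and 0.322 for LSS, 0.299 and 0.346 for TM7SF2, 0.080 and 0.109 for SCAP, and 0.060 and 0.093 for SREBF2. NPC1L1, with at most 18 counts in a library, did not pass the filter on low counts.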
